A study of Mus musculus with 4 samples.

Results

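The genes described here encode the nuclear subunits of oxidative phosphorylation. They were taken by name from the count table. The symbols were those beginning Nduf followed by a, b, s, v or c, Sdha to Sdhd, those beginning Uqcr or Cox4 to Cox8, and Cyc1. Symbols beginning Atp5 followed by a to f, h, j, k, l or o were also taken, which leaves out Atp5g. The rule took 88 of 38355 genes and left out 3 pseudogene names ending in -ps. It took 38 genes of complex I, 4 of complex II, 9 of complex III, 18 of complex IV and 12 of the ATP synthase, and also 7 assembly factors of complex I (Ndufaf1 to Ndufaf7), which are not subunits and are kept apart below. Of the 88 genes, 84 passed a filter on low counts and were among the 14189 genes tested. The exceptions were Atp5l, Cox6b2, Cox7b2 and Cox8c. Genes of the mitochondrial DNA and the Atp5g genes were not analysed here.

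The tissue was the free wall of the left ventricle of 4 mice, 2 of them wild type (WT) and 2 transgenic (TG) for VSFP2.3, with 1 mouse per library. VSFP2.3 is a fluorescent protein that reports membrane voltage, directed to heart muscle cells, and the series was set up to determine whether it harms the heart. WT 1 and TG 1 were males aged 35 weeks, WT 2 and TG 2 were females aged 19 weeks, none was treated, and all came from one pair of parents. The sources used here did not name the transgene's promoter, its line or the strain, and its transcripts were not analysed here, which leaves the genotype labels without a check by a targeted gene. Since sex and age changed together, they cannot be told apart.

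Oxidative phosphorylation makes most of the ATP of the beating heart. Complex I oxidises NADH and complex II oxidises succinate, both pass electrons through ubiquinone to complex III, cytochrome c carries them on to complex IV, and complex IV reduces oxygen. The proton gradient that complexes I, III and IV build across the inner mitochondrial membrane drives the ATP synthase. Complexes I, III, IV and the synthase combine subunits from nuclear and mitochondrial genes, while all subunits of complex II are nuclear-encoded. Several complex IV subunits have a second gene used in heart and skeletal muscle.

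Libraries held 14158440 to 16762713 counts in genes, and a gene with no count could be at up to 0.182 to 0.213 counts-per-million units (CPM), the level of 3 counts, counting error only. Some features of the libraries bear on what follows. WT 1 and TG 2 had more leukocyte RNA: the summed CPM of 17 leukocyte markers was 1926 in WT 1 and 1528 in TG 2 against 311 in WT 2 and 295 in TG 1. WT 2 carried the non-coding RNA Yam1 at 43790 CPM against 149 to 448 in the others, Lars2 at 8772 against 20.8 to 47.4, and the atrial light chain Myl4 at 75.5 against 0.711 to 1.15, while Nppa, another of the 8 atrial markers, was lowest in WT 2 (3703, 1055, 1555 and 4223 CPM in WT 1, WT 2, TG 1 and TG 2). All 15 cardiomyocyte markers were detected in all 4 libraries, with Myl2, the ventricular regulatory light chain, at 7666 to 7938 CPM. CPM values below use library sizes scaled by trimmed means (TMM), and 4 values in a row stand in the order WT 1, WT 2, TG 1, TG 2.

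The 88 genes together took 4.05%, 3.43%, 3.51% and 3.85% of the counts. The 2 large subunits of the synthase's catalytic head, Atp5a1 and Atp5b, alone took 0.985%, 0.830%, 0.911% and 0.938%. In TMM-scaled CPM the 88 genes summed to 38100, 36710, 37090 and 36160, a narrower range than their shares of the counts. Levels were also taken per kilobase of exon, where the length joins the exons of all annotated transcripts of a gene. Rankings of genes on this scale therefore depend in part on the annotation. The 84 tested genes had a median level of 160 CPM per kb, against 4.09 for all 14070 tested genes with a length. Of the 84, 82 lay above that overall median and 68 in the top 5% of tested genes. The highest was Atp5a1 at 1425 CPM per kb, followed by Cox7a1 at 1147, Cox8b at 1134 and Atp5b at 1104. Without division by length the mean was 4467 CPM for Atp5a1 and 4678 for Atp5b. The complex I assembly factors were far lower, with a median of 12.9 CPM per kb, from 5.93 for Ndufaf2 to 33.2 for Ndufaf1.

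**Figure D1:**
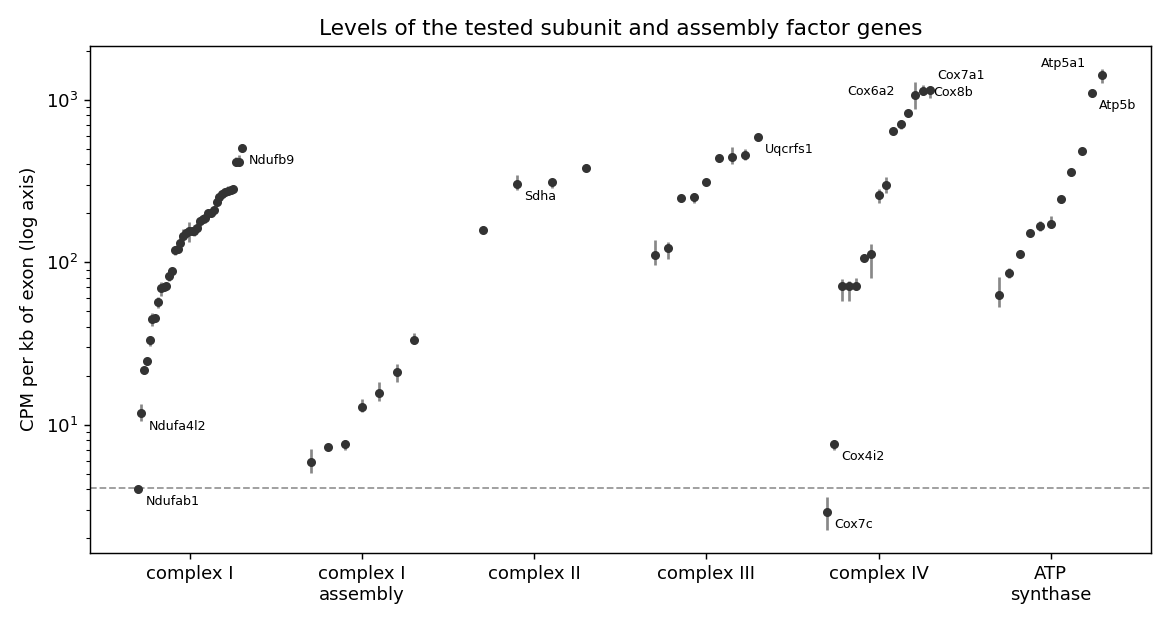
Mean level of each tested gene over 4 libraries (points) with the lowest and highest library (vertical lines), in CPM per kb of exon on a log axis, by complex; the dashed line is the median of all tested genes with a length, 4.09. Most subunit genes lie well over the dashed line, the assembly factors nearer to it, and Ndufab1 and Cox7c just below it.

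Levels also varied within complexes. In complex I they ran from 4.01 CPM per kb for Ndufab1, the mitochondrial acyl carrier protein, to 505 for Ndufb9, an accessory subunit. In complex III the range was 110 for Uqcrq to 588 for Uqcrfs1, the Rieske iron-sulfur protein, and in complex II 159 for Sdhc to 381 for Sdhd, the pair of membrane anchors. In the ATP synthase the lowest tested gene was Atp5j, coupling factor 6, at 63.0 CPM per kb. The complex IV subunit Cox7c had the lowest level of all tested members, 2.89 CPM per kb, and only 201 counts over the 4 libraries.

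Some of the low levels belong to genes with near-identical copies elsewhere in the genome. Atp5l, subunit g of the synthase, had 26 counts in all 4 libraries and 13 annotated pseudogene copies at 90% identity or more over at least 200 bases, of which 3 were at 98% or more. The 11 members with a copy at 98% or more had a median level of 44.6 CPM per kb, against 179 for the other 77. For Atp5h, subunit d of the synthase, 45.8% of the counts on the gene and its copies were on the gene itself, and for Ndufab1 50.2%, for Ndufs5 51.9% and for Ndufa12 56.4%. How reads with several matches were counted is not stated in the sources used here, so the levels of these genes are uncertain. The same holds for Cox7c, which has 1 copy at 98% or more, with 7 counts. Cox6b2 had 2, 15, 5 and 5 counts and Cox7b2 5, 4, 9 and 5, while Cox8c had 0 in every library; these are the isoforms known from testis.

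Complex IV has heart and non-muscle forms of 3 subunits, and the heart forms predominated in all 4 libraries. Cox6a2, the muscle form of subunit 6a, was at 1292, 1021, 875 and 1088 CPM per kb, against 73.3, 76.8, 57.3 and 76.4 for Cox6a1, so it made up 94.6%, 93.0%, 93.9% and 93.4% of the pair. Cox7a1 took 78.4%, 79.7%, 79.4% and 80.0% of the pair with Cox7a2, the form found in most tissues. Cox8b, the muscle form of subunit 8 in mice, took 94.0%, 93.4%, 94.9% and 94.2% of the pair with Cox8a. These shares spanned 2 percentage points or less within each pair. Cox4i2, the form of subunit 4 best known from lung, took 0.926%, 0.932%, 0.824% and 0.948% of the pair with Cox4i1. Ndufa4l2, a hypoxia-induced paralogue of Ndufa4, was at 12.5, 12.7, 14.7 and 11.5 CPM, and Ndufa4 itself, a subunit now assigned to complex IV, at 611, 543, 581 and 559. By their symbols both are counted with complex I in all tallies of this report.

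Between genotypes 3 of the 4 shares overlapped, and that of Cox8b did not. TG minus WT was -0.175 percentage points for Cox6a2 (93.8% ± 1.15 in WT and 93.6% ± 0.299 in TG, SD, n = 2; exact permutation p = 1.0, two-sided). The Cox7a1 share differed by 0.631 points (exact permutation p = 0.667), and the Cox4i2 share by -0.0427 points (exact permutation p = 1.0). The Cox8b share was higher in both TG libraries, at 93.7% ± 0.363 in WT and 94.6% ± 0.512 in TG (SD, n = 2; exact permutation p = 0.333), a difference of 0.871 points. With 2 libraries against 2, 0.333 is the smallest p an exact test can give, so no share could pass a threshold of 0.05.

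The sequences before the start sites of these isoform genes are shown because Cox7a1 and Cox8b differ in CG content from their widely used partners. Cox6a2 had no entry among the RefSeq promoters used here, so Cox6a1 is shown without its partner and that pair cannot be compared. Each line gives the 180 bases before the start site, 5′ to 3′ on the gene's strand, from the RefSeq annotation of GRCm38.p6, with CG pairs in capitals.
Cox7a1, chr7:30183991-30184170, plus strand: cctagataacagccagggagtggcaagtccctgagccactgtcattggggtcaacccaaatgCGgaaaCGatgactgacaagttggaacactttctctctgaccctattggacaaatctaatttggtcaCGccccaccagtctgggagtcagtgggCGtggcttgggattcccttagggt
Cox7a2, chr9:79759854-79760033, minus strand: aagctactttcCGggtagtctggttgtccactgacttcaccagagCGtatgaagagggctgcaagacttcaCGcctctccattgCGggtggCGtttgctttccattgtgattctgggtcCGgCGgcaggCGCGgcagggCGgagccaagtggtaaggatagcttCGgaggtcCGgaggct
Cox8b, chr7:140900447-140900626, minus strand: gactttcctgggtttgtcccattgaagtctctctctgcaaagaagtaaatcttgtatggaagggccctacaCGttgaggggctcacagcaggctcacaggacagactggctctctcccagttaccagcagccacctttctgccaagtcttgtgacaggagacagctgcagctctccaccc
Cox8a, chr19:7217617-7217796, minus strand: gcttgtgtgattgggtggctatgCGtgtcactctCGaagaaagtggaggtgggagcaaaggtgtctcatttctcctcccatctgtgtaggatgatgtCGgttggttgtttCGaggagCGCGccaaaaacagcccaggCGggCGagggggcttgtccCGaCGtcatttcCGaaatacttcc
Cox6a1, chr5:115348959-115349138, minus strand: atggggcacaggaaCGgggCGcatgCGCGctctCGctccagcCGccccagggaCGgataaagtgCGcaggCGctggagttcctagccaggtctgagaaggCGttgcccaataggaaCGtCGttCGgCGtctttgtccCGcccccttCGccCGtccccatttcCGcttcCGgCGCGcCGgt

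Cox7a1 has 4 CG pairs in this window and Cox7a2 12, and Cox8b has 1 against 11 in Cox8a. Cox6a1, the non-muscle form of subunit 6a, has 22. The median over the 71 members found in the RefSeq promoter table was 12, against 4 over all 27025 genes in it, with a single promoter per gene. So Cox7a1 and Cox8b, the muscle genes with the highest levels per kb of complex IV, sat at or under the genome median in CG pairs. Their partners Cox7a2 and Cox8a sat at or near the members' median. The window of Cox6a2 was not available.

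Short motifs of factors known to act on respiratory genes were searched on both strands of the promoters, from 250 bases before to 50 after the start; none of the motif strings contains another. A gene was counted if any of its promoters held the string. The NRF-1 string GCGCATGCG was in 9 of 71 members (12.7%) and in 1.95% of all genes in the promoter table. Among the members with it were Cox6a1, Uqcrc1, Uqcr11, Ndufa8, Ndufa11 and Ndufaf4. The YY1 string AAGATGGCG was in 7 members (9.86%, against 1.64% of all), namely Atp5j, Atp5j2, Ndufa9, Ndufc1, Ndufs4, Ndufs6 and Ndufs7. An ETS string CCGGAAGT, as read by GABP, was also in 5 (7.04%, against 4.31%), among them Ndufs3, Uqcrh and Cox8a. The ERR string TCAAGGTCA was in Sdhd only (1.41%, against 0.466%). TATAAA was in 7 members (9.86%, against 15.7%). Cox8b was among them, with its match beginning at base 5 after the start. The NRF-1, YY1 and ETS strings contain CG pairs, and the ERR and TATAAA strings contain none. The members' promoters were richer in CG pairs, with a median of 12 against 4 over all genes. Whether the shares differ beyond this CG content was not tested. These matches describe letters in the windows, and no binding was measured here.

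Over the 4 libraries the members varied little. The ratio of the highest to the lowest library had a median of 1.14 over the 84 tested members (quartiles 1.10 and 1.21), against 1.38 over all tested genes. It exceeded 1.2 for 22 members and 1.5 for 3, which were Cox5b, Cox7c and Atp5j. The steadiest was Ndufs6, an accessory subunit of complex I, at 109, 108, 108 and 108 CPM. WT 1 held the highest value of 53 of the 84 members, against 3987 of all 14189 tested genes. TG 1 held the lowest value of 37 members, against 3825 of all tested genes. The median deviation of a member from its own mean, on the log2 scale, was 0.07 in WT 1, -0.01 in WT 2, -0.04 in TG 1 and -0.02 in TG 2.

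**Figure D2:**
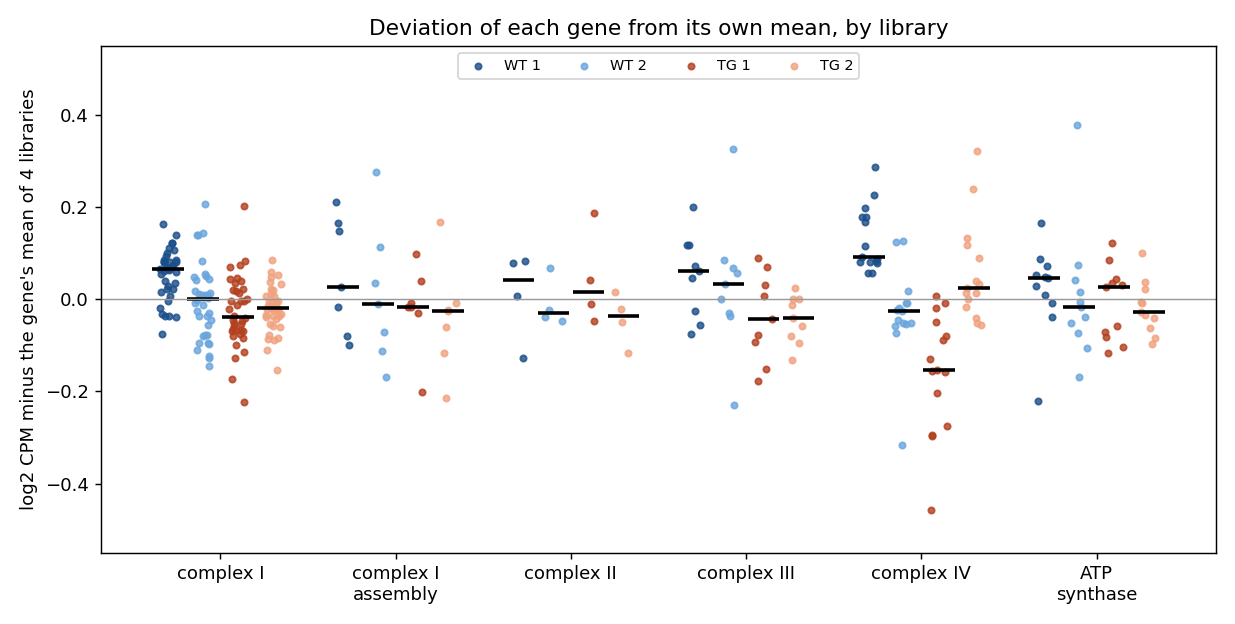
Deviation of each tested gene's log2 CPM from its mean over the 4 libraries, by complex and library; each point is 1 gene and each bar the median of the group. Most medians lie within 0.1 of 0, and the lowest is that of complex IV in TG 1 at -0.15.

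The first comparison, TG against WT, addresses the purpose of the series. No member passed a threshold of 0.05 in edgeR's quasi-likelihood test after Benjamini-Hochberg adjustment over all 14189 genes (0 of 84 called, against 0.0% of tested genes), and the smallest adjusted p among members was 1.00. None had an unadjusted p under 0.05, against 0.698% of tested genes. DESeq2 and limma-voom called 0 members as well. Genotype was the only term in these fits, so the spread within each genotype held the differences of sex and age. The lack of calls therefore does not show equal levels. All but 3 members differed by less than 0.2 on the log2 scale, and the median SE of a member's fold change was 0.14. The differences ranged from -0.29 for Cox8a to 0.17 for Sdha.

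The differences were small and mostly below 0. Of 84 members 69 were lower in TG and 15 higher, which is 82.1% below 0 against 52.5% of all tested genes, with a median of -0.06 against -0.01. Both TG libraries lay below both WT libraries for 17 members (10.7% of all tested genes did so) and above them for 3 (10.3% of all genes). Each complex had more members lower than higher: 30 of 38 in complex I, all 7 assembly factors, 3 of 4 in complex II, 7 of 9 in complex III, 14 of 15 in complex IV and 8 of 11 in the synthase. Their medians were -0.04, -0.05, -0.05, -0.06, -0.08 and -0.05 in that order. Without WT 1 the members' median was -0.01 with 37 of 84 higher, and 9 of 15 complex IV genes were lower. With the trend of fold change on exonic length removed it was 0.00305 with 44 higher.

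**Figure D3:**
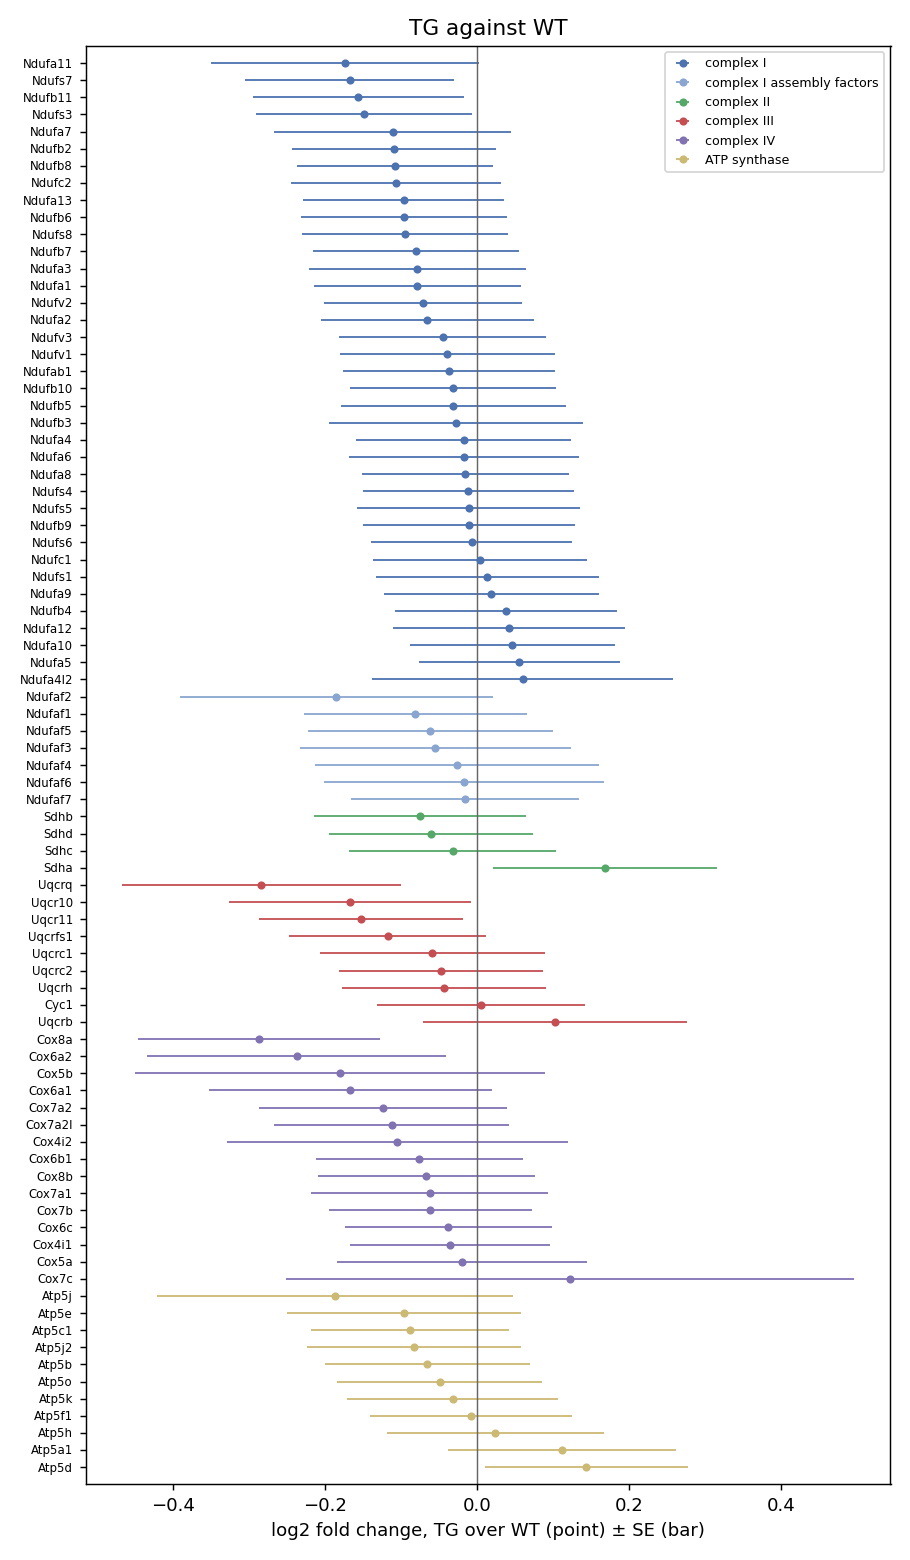
Log2 fold change of TG over WT (points) with its SE (bars) from edgeR for the tested genes reported here, grouped by complex. Most points lie left of 0 and within 0.2 of it, and the bars of most genes reach 0.

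In complex I, the core subunits carry the flavin and iron-sulfur clusters that take electrons from NADH. Ndufs1, the 75 kDa subunit, was at 1017, 900.3, 1013 and 923 CPM. The flavin-binding Ndufv1 was at 675, 662, 691 and 610.3 CPM. Ndufv2, its iron-sulfur partner, stood at 526, 505, 489.8 and 491, lower in both TG libraries. For these 3 genes the TG to WT difference was smaller than its SE. Ndufs7, an iron-sulfur subunit near the ubiquinone site, was at 282, 307, 262 and 262 CPM, with both TG libraries under both WT libraries (log2 fold change -0.17 ± 0.14 SE; edgeR adjusted p = 1.00). Ndufs3 was at 107, 97.6, 88.7 and 95.6 CPM and Ndufs8 at 205, 196, 187 and 189, also without overlap. Ndufa5, an accessory subunit of the peripheral arm, had the smallest p among the few higher genes of complex I, at 268, 265, 279.8 and 274 CPM (log2 0.06 ± 0.13). Of the 7 core genes 6 were lower and 1 higher. Among the assembly factors Ndufaf2 had the smallest p, at 16.3, 21.2, 18.0 and 15.1 CPM (log2 -0.18 ± 0.21), and its groups overlapped; a non-coding gene on the opposite strand covers 65.7% of its exons.

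Complex II doubles as an enzyme of the citric acid cycle. Sdha (chromosome 13, 74322254 to 74350280, mm10), its flavoprotein and catalytic subunit, was at 1147, 1221, 1428 and 1234 CPM. Both TG libraries were above both WT libraries, TG 2 only slightly, and the mean was 1184 ± 52.7 in WT and 1331 ± 137 in TG (SD, n = 2; log2 0.17 ± 0.15 SE; edgeR adjusted p = 1.00). The other 3 genes did not share this order. Sdhb, the iron-sulfur subunit, was at 703, 733, 719 and 645 CPM. The anchors Sdhc and Sdhd were at 543, 498, 498 and 521 and at 496, 461, 465 and 453, so that WT 1 was highest for both.

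In complex III, Uqcrfs1 was at 836, 834, 759.8 and 779 CPM, lower in both TG libraries (log2 -0.12 ± 0.13). Cytochrome c1, encoded by Cyc1, was level at 509, 561, 539 and 536 CPM. The core proteins Uqcrc1 and Uqcrc2 were at 1024, 1106, 1094 and 952 and at 1146, 1111, 1135 and 1050.0. They overlapped between genotypes, with TG 2 lowest for both. Uqcrq (chromosome 11, 53427922 to 53430831), a small ubiquinone-binding subunit, was at 192, 251, 177 and 187 CPM, where WT 2 stood above the others (log2 -0.28 ± 0.18). Uqcrb, another small subunit, had the smallest p of the higher genes, at 116, 91.0, 114 and 109 CPM (log2 0.10 ± 0.17), and WT 2 was the low library.

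In complex IV, Cox4i1 was at 1342, 1269, 1295 and 1254 CPM, one of the steadiest levels of the complex. Cox5a was at 570.0, 520.0, 484 and 592 and Cox5b at 204, 173, 127 and 206, both lowest in TG 1. Cox8a (chromosome 19, 7215153 to 7217616) had the smallest p of all members for this comparison, at 48.9, 47.5, 35.5 and 43.6 CPM. Both TG libraries lay below both WT libraries (log2 -0.29 ± 0.16; unadjusted p = 0.134 by edgeR, adjusted p = 1.00). Its muscle partner Cox8b was at 442, 394, 386 and 412 CPM. Cox6a2 (chromosome 7, 128205435 to 128206387) was at 879, 695, 595 and 739.5 (log2 -0.24 ± 0.20), and Cox6a1 at 51.5, 53.9, 40.2 and 53.7. Their groups overlapped. Cox7a1 stood at 653, 601, 550.0 and 651 CPM, Cox7a2 at 318, 269.5, 252 and 287, and Cox7a2l, a factor of respiratory supercomplexes, at 119, 99.8, 101 and 101. TG 1 or WT 2 was lowest for each of these. Cox6b1 was at 530.0, 498, 471 and 505 and Cox7b at 828, 773, 779 and 756 CPM, and Cox4i2 at 6.38, 6.07, 5.47 and 6.10. The only complex IV gene with a value above 0 was Cox7c, at 3.71, 2.56, 2.77 and 4.05 CPM (log2 0.12 ± 0.37).

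In the ATP synthase the alpha subunit gene Atp5a1 was at 4623, 3965, 4846 and 4434 CPM and the beta subunit gene Atp5b at 4647, 4920, 4773 and 4372. Both overlapped between genotypes. Atp5c1, the central stalk gamma subunit, was at 962, 925, 878 and 897, lower in both TG libraries by little (log2 -0.09 ± 0.13). Atp5d, the delta subunit of the same stalk, was at 313, 298, 331 and 344, higher in both TG libraries (log2 0.14 ± 0.13). Atp5j (chromosome 16) was at 167, 253, 179.7 and 189 CPM, with WT 2 far above the others (log2 -0.19 ± 0.23). Its exons overlap those of Gabpa on the opposite strand over 12.7% of their length, and the sources used here do not state whether counting used strand.

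The second comparison set the 35-week males (WT 1 and TG 1) against the 19-week females (WT 2 and TG 2). By edgeR 0 of 84 members were called, against 0.0282% of tested genes (4 genes), and 0 had an unadjusted p under 0.05, against 3.62%. DESeq2 and limma-voom called 0 members too. In males 56 members were higher and 28 lower, or 33.3% below 0 against 48.1% of all genes, with a median of 0.03 against 0.01. Both males were above both females for 23 members (15.6% of all tested genes) and below for 4 (15.9%). Without WT 1 the median was -0.02 with 38 higher, and without TG 1 it was 0.08 with 65 higher.

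By complex, higher values in males were found for 26 of 38 complex I genes, 5 of 7 assembly factors, all 4 of complex II, 6 of 9 of complex III, 7 of 15 of complex IV and 8 of 11 of the synthase. Atp5a1 had the smallest p of the higher synthase genes (log2 0.17 ± 0.13), and Ndufs1 that of complex I (0.15 ± 0.12). Both males exceeded both females for each. Sdhd differed by 0.07 ± 0.12 and Cox7a2l by 0.13 ± 0.14, with WT 1 highest for both. Uqcrb differed by 0.20 ± 0.14, with WT 2 again the low library.

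The 4 members lower in both males came from complex I, its assembly factors, complex IV and the synthase. Ndufaf4, an early assembly factor of complex I, was at 77.8 and 71.4 CPM in the males and 88.9 and 92.3 in the females (log2 -0.28 ± 0.12; unadjusted p = 0.0746 by edgeR, adjusted p = 1.00). Ndufa11, an accessory subunit in the membrane arm, was at 165 and 144 against 194 and 174 (log2 -0.25 ± 0.14). Cox6a1 (-0.23 ± 0.16) and Atp5j (-0.35 ± 0.18) completed the set, the first with 1 low male library, TG 1, and the second with 1 high female library, WT 2. Uqcrq had a difference of -0.25 ± 0.18 with overlap. The assembly factor Ndufaf3 went the other way, at 33.0 and 28.1 CPM in males and 25.3 and 28.0 in females (0.20 ± 0.14).

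The third comparison set the TG to WT ratio of the males against that of the females. With 4 libraries this tests the same contrast as setting TG 1 and WT 2 against WT 1 and TG 2, the crossed split. It was fitted as the only term with 2 residual degrees of freedom. The crossed log2 values and SEs given here are those of TG 1 and WT 2 over WT 1 and TG 2. The difference between the male and female TG to WT log2 ratios is about 2 times each value. The crossed split is also the one along which the leukocyte markers differed. Among all tested genes it called 386, or 2.72%, and among the 84 members 0. DESeq2 and limma-voom also called 0 members. Only Cox5b had an unadjusted p under 0.05, against 16.2% of tested genes.

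Members were lower on the side of TG 1 and WT 2 in 59 of 84 cases (70.2%, against 49.1% of all tested genes), with a median of -0.06 against 0.01 over all genes. TG 1 and WT 2 both lay below the other libraries for 26 members (24.6% of all tested genes) and above them for 11 (23.0%). The crossed split held 47.9% of the members' sum of squared deviations, genotype 25.2% and the male to female difference 26.9%. Over all tested genes the shares were 63.3%, 12.8% and 23.9%. Complex IV had the greatest crossed share of the complexes, 64.2%, close to that of all genes, and complex III had the smallest, 30.3%.

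All 15 tested complex IV genes were lower in TG 1 and WT 2, with a median of -0.16. Of the 15, 10 were lower without overlap of the libraries, against 24.6% of all tested genes. This direction turned once the length trend was removed, as given below. Ndufa4 and Ndufa4l2, counted with complex I here, were at -0.06 ± 0.12 and 0.19 ± 0.16. TG 1 was the lowest library for 10 of the 15 and WT 1 the highest for 11, against 3825 and 3987 of all 14189 tested genes. Cox5b (chromosome 1, 36691449 to 36693681), which binds zinc on the matrix face, was at 127 and 173 CPM in TG 1 and WT 2 and at 204 and 206 in WT 1 and TG 2 (log2 -0.45 ± 0.17; unadjusted p = 0.0362 by edgeR, adjusted p = 0.269). The log2 ratio of Cox5b was -0.24 without TG 1 (unadjusted p = 0.12 by edgeR, adjusted p = 0.411), -0.69 without WT 2 (adjusted p = 0.0657) and -0.21 with the length trend removed. Cox6a2 followed at 595 and 695 against 879 and 739.5 (-0.33 ± 0.14; unadjusted p = 0.0646 by edgeR, adjusted p = 0.347). The values were -0.54 ± 0.24 for Cox7c, -0.21 ± 0.12 for Cox7a2, -0.21 ± 0.11 for Cox5a and -0.18 ± 0.11 for Cox7a1. The genes nearest 0 were Cox4i1 (-0.02 ± 0.11) and Cox7b (-0.03 ± 0.11), which are also the 2 most abundant by CPM. Without TG 1 the median of the complex was -0.12 with 13 of 15 lower, and without WT 1 it was -0.08 with 13 lower.

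**Figure D4:**
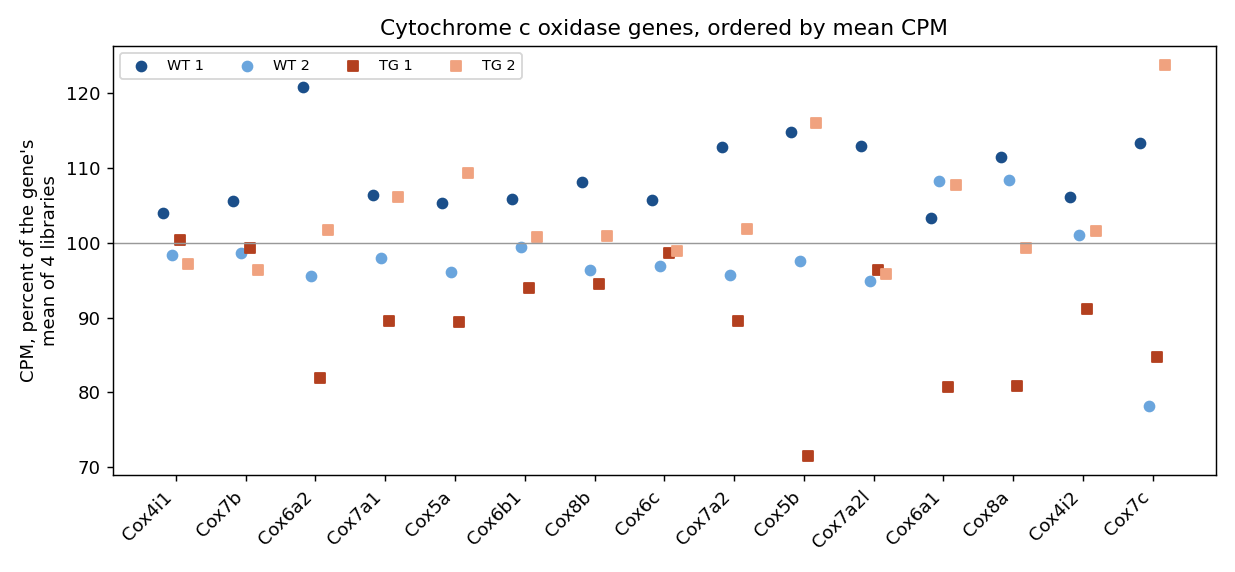
CPM of each tested complex IV gene as a percentage of its mean over the 4 libraries, in order of mean CPM. TG 1 (dark squares) is the lowest library for 10 of 15 genes and WT 1 (dark circles) the highest for 11. Over all 14189 tested genes the counts are 3825 and 3987.

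The other complexes were divided. In complex I 25 of 38 genes were lower, with Ndufb3, an accessory subunit of the membrane arm, at 96.7 and 90.7 CPM in TG 1 and WT 2 and 112 and 103 in the others (log2 -0.20 ± 0.11). Among assembly factors 5 of 7 were lower, Ndufaf3 by the smallest p (-0.19 ± 0.15), while Ndufaf2 was higher (0.32 ± 0.16; unadjusted p = 0.0874 by edgeR, adjusted p = 0.398). In complex II the 2 catalytic subunits were higher and the 2 anchors lower: Sdha by 0.15 ± 0.13 and Sdhb by 0.11 ± 0.11, against -0.09 ± 0.11 for Sdhc and -0.03 ± 0.11 for Sdhd. Complex III had 5 of 9 lower, from Uqcr10, a small subunit, at 233 and 253 CPM against 298 and 257 (-0.19 ± 0.13), to Uqcrc1 (0.16 ± 0.11) and Uqcrq (0.17 ± 0.18) on the other side. In the synthase 7 of 11 were lower, with Atp5e, the epsilon subunit, at 284 and 286 CPM against 337 and 299 (-0.16 ± 0.12), and Atp5j was higher (0.28 ± 0.18). None of these passed the test.

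Gene length moved with this split. The members were short, with a median exonic length of 1578 bases against 4314 over all tested genes. Across genes, which are not independent replicates and share the same 4 libraries, Spearman's rho of the crossed log2 ratio with exonic length was 0.26 over 14070 genes and 0.41 over the 84 members. For TG over WT it was 0.20 and 0.21. With the length trend removed the members' crossed median turned to 0.17, with 79 of 84 higher, against 0.08 over all genes, and the complex IV median turned to 0.11, with 3 of 15 lower. Both directions thus changed once length was taken into account. Without the TMM factors, on library totals alone, the members' crossed median was -0.24, where the median of all genes was itself -0.17.

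**Figure D5:**
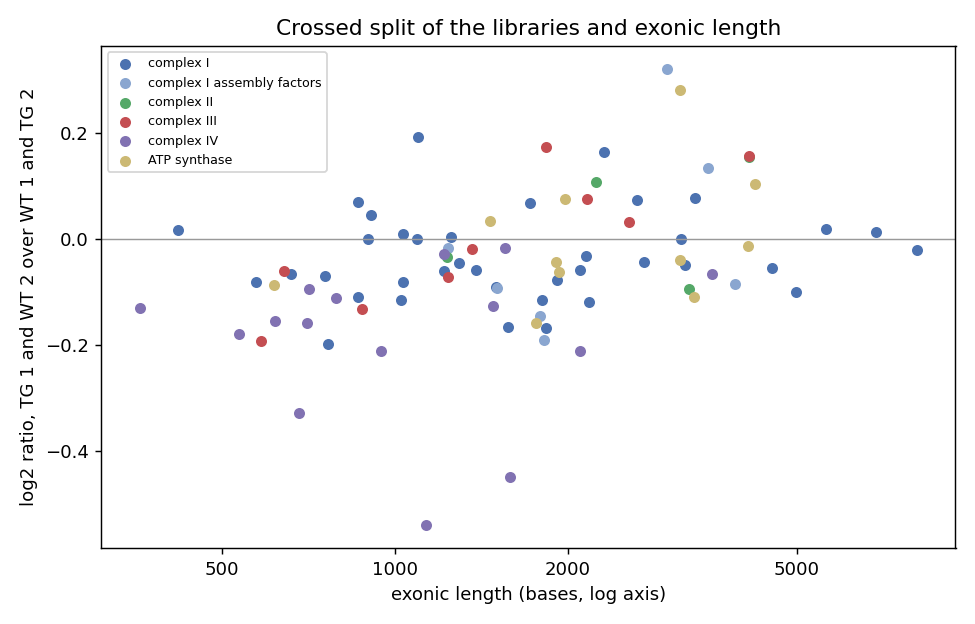
Log2 ratio of TG 1 and WT 2 over WT 1 and TG 2 against exonic length (log axis) for the 84 tested genes, coloured by complex. The complex IV genes lie mostly toward the short end and all below 0, and Spearman's rho over the 84 points is 0.41.

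Some sums of markers, of other cells and of the muscle itself, also differed along the crossed split. Besides the leukocyte sum given above, the summed CPM of 15 cardiomyocyte markers was 154600 in WT 1 and 159000 in TG 2 against 198900 in WT 2 and 232300 in TG 1. Most of that difference was in Ttn, the giant sarcomere protein, at 61590, 96810, 118100 and 63190 CPM. Myh6, Ryr2, Tnni3 and the light chain Myl3 (4568, 4702, 4663 and 4074) were also higher in both TG 1 and WT 2. Mb, Tcap and Fabp3 were lower in both, and the rest of the cardiomyocyte markers overlapped. None of the 17 leukocyte markers was at 0 in all libraries. The summed levels of endothelial markers were 1303 to 1658 CPM and those of fibroblast markers 3539 to 4078. The atrial sum, mostly Nppa, was 3733 in WT 1 and 4264 in TG 2 against 1269 in WT 2 and 1591 in TG 1. The erythroid sum was 718 in WT 1 and 142 to 235 in the others, and Ucp1, which defines brown fat, was at 0 in all 4. On the crossed split 59 of 84 members were lower in TG 1 and WT 2. These 2 libraries had the lower leukocyte sums and the higher cardiomyocyte sums, the latter mostly through Ttn. Gene length also moved with this split, and its part in the marker sums was not tested. The part of these markers in the results was not tested either, and cell number and RNA per cell cannot be told apart in tissue RNA.

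Genes that work beside the respiratory chain were taken from lists of known function, and none passed edgeR's test. For TG over WT, edgeR called 0 genes in each list, with 0 at an unadjusted p under 0.05, and DESeq2 and limma-voom called 0. Values were higher in 17 of 39 further assembly factors (median -0.02), 5 of 13 genes of cytochrome c and ubiquinone synthesis (-0.03), 7 of 14 of the citric acid cycle (0.01), 13 of 16 regulators of mitochondrial biogenesis (0.05) and 19 of 75 mitochondrial ribosomal proteins (-0.07). Sco2, a copper chaperone of complex IV, was at 7.59, 7.16, 5.05 and 5.97 CPM (log2 -0.42 ± 0.23), and Cox15, which makes heme a, at 43.4, 33.5, 50.9 and 42.5 (0.28 ± 0.19). Mrps11, a small-subunit ribosomal protein, had a value of -0.39 ± 0.16 and Mrpl54 of the large subunit -0.24 ± 0.13, both lower in both TG libraries. Coq2, of ubiquinone synthesis, was at 70.7, 64.0, 61.4 and 51.9 CPM, also lower in both TG libraries (-0.25 ± 0.16). The values of the remaining named genes were Coq10b (0.21 ± 0.16), Idh3g (-0.07 ± 0.13), Sucla2 (0.06 ± 0.14), Yy1 (0.18 ± 0.15) and Ppargc1b (0.26 ± 0.26).

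Between males and females 0 genes of these lists were called by edgeR and 1 had an unadjusted p under 0.05. It was Ppargc1a, the coactivator PGC-1α that drives mitochondrial biogenesis, at 128 and 167 CPM in the males and 298 and 276 in the females (log2 -0.96 ± 0.18; unadjusted p = 0.00355 by edgeR, adjusted p = 1.00). DESeq2 called this gene and no other of the lists, and limma-voom called 0. Over all 14189 tested genes DESeq2 called 34 between males and females, and 3.62% had an unadjusted p under 0.05 by edgeR. The regulator list had 6 of 16 higher in males and a median of -0.11, with Ppara, the fatty acid receptor, at -0.50 ± 0.26. The members did not share that order, with a median of 0.03. The other lists had medians of -0.01 to 0.03, among them Lrpprc, a stabiliser of mitochondrial mRNA, at 0.26 ± 0.12 and Mrpl34 at -0.33 ± 0.13.

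Along the crossed split edgeR and limma-voom called 0 genes of the lists, and DESeq2 called Dlst, Mdh2 and Pprc1. Over all 14189 tested genes DESeq2 called 703 on this split, and 16.2% had an unadjusted p under 0.05 by edgeR. In the citric acid cycle 12 of 14 were higher, with a median of 0.20, and 4 had an unadjusted p under 0.05. Dlst, of the oxoglutarate dehydrogenase complex, was at 634 and 653 CPM in TG 1 and WT 2 against 455 and 490.3 in the others (log2 0.44 ± 0.11; edgeR adjusted p = 0.123). Mdh2, mitochondrial malate dehydrogenase, was at 689.9 and 776 against 485 and 554 (0.50 ± 0.13; edgeR adjusted p = 0.138). Of the regulators 13 of 16 were higher (median 0.20, 3 at an unadjusted p under 0.05), led by Pprc1, a relative of PGC-1α, at 18.8 and 20.6 against 9.48 and 13.0 CPM (0.81 ± 0.20; edgeR adjusted p = 0.111), and Polrmt, the mitochondrial RNA polymerase (0.31 ± 0.12). Adck3, needed for ubiquinone synthesis, was at 647 and 682 against 530.2 and 443 (0.45 ± 0.13; edgeR adjusted p = 0.179), in a list with 10 of 13 higher and a median of 0.05. The ribosomal list had 27 of 75 higher (median -0.05; Mrpl14 0.33 ± 0.11) and the further assembly factors 16 of 39 (median -0.03; Foxred1 0.30 ± 0.10, Taco1 0.36 ± 0.14). These lists were not run with the length trend removed.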

How the data were processed

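Total RNA of 4 left ventricles was made into TruSeq stranded libraries and sequenced on a HiSeq2000, per the labels' protocols. The authors deposited raw read counts per Ensembl gene. The submitters' processing notes name build mm10, the aligner STAR 2.3.0 and the counter HTSeq 0.6.1, besides DESeq, FastQC 0.10.0 and CASAVA 1.8.2. The gene annotation, the strand setting and the handling of reads with several matches are not given in the sources used here. A second deposited table of normalized values was not used.

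Counts were tested in R 4.3.3 with edgeR 4.0.16 (filterByExpr, minimum count 10; TMM; quasi-likelihood test; Benjamini-Hochberg adjustment; threshold 0.05). The test was also run on simulated counts, with the same dispersion for every gene and no sex, age or crossed difference. That run cannot show how the test performs on these libraries, where such differences are present. Alternatives were DESeq2 1.42.0, limma-voom (limma 3.58.1), other scalings, no filter, a block, a length trend removed by loess, and leaving out each library. Levels per kb and the length trend use exonic lengths of GENCODE vM21 on the same assembly, over the joined exons of all transcripts of a gene. Named genes were the catalytic and core subunits, the isoform pairs, the members that failed the filter, the highest and lowest level of each complex, the member of smallest p per complex, direction and comparison, and 2 genes of smallest p per further list; Yam1, Lars2 and the marker genes were named after values were seen. A gene that this rule names is not reported here, though counts and medians include it. Isoform shares were tested by exact permutation (scipy 1.17.1). The members, lists and comparisons were chosen with earlier results of these data known. The p-values measure only the spread between these 4 mice, 2 of each genotype. Each comparison was the only term of its main fit, so the spread it was tested against held the other differences too. Over all tested genes genotype held 12.8% of the sum of squared deviations, the male to female difference 23.9% and the crossed split 63.3%. Calls of 0 for TG against WT therefore do not show equal levels. The replicate numbers, which share sex and age, were not taken to pair the mice.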

Additional observations from a re-analysis of the deposited data

How the results depend on the processing

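No member was called in any of the 3 comparisons under any alternative that gives a test, which removing the length trend does not. Over all genes, TG against WT gave 3 calls with DESeq2 and 0 to 6 when 1 library was left out, the 6 being without WT 1. Males against females gave 34 calls with DESeq2, 7 without a filter and 0 to 7 when 1 library was left out. The crossed split gave 703 with DESeq2, 908 without a filter and 40 to 347 when 1 library was left out (40 without WT 1 and 109 without TG 2).

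The replicate numbers share only sex and age, and same-numbered libraries deviated in opposite directions (correlation of deviations -0.449 over 14189 genes). With the replicate number as a block TG against WT stayed at 0 calls and the crossed split gave 741, while males against females with genotype as a block gave 0; no call of a member changed. With the pairing crossed, an alternative chosen after seeing the data, the 3 comparisons gave 0, 26 and 372 calls.

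For TG over WT, leaving out 1 library moved the members' median between -0.0898 and -0.00947, the members higher between 13 and 37 and the complex IV genes lower between 9 and 15. Removing the length trend gave 0.00305, 44 and 8. For males over females, leaving out 1 library moved the complex IV median between -0.154 and 0.102 and its genes lower between 1 and 11. For the crossed split, leaving out 1 library moved the members' median between -0.0946 and -0.0108, the members higher between 22 and 38 and the complex IV median between -0.247 and -0.0798. Library totals alone gave -0.236, 3 and -0.334 for these, and removing the length trend 0.169, 79 and 0.113, with 3 complex IV genes lower. The Cox8b share differed by 1.379 points in CPM without division by length. The cause of these shifts was not tested. Over all 84 members, none of them called, the sign turned with the length trend removed for 31 (TG over WT), 3 (males over females) and 54 (crossed split). It turned for 14 to 24, 13 to 21 and 9 to 15 when 1 library was left out, for 3, 3 and 22 on library totals, and for 0 to 2 under the other alternatives. With 1 library left out, the lone library of its group is assumed to vary like the others.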
